A study of Mus musculus with 12 samples.

Results

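BDL day 14 was compared with BDL day 3 in cells sorted as GFP(+) from a *Prom1* lineage-tracing line. The aim was to see what changed between the early and the later stage of cholestatic injury. The comparison took in every gene whose mean over all libraries was at least 1 normalized count, which were 12891 of the 16971 genes listed. Cells came from livers of Prom1CreERT2-nLacZ/+;Rosa26Lsl-GFP/+ mice, bred from a *Prom1* line on C57BL/6N and a *Rosa26* line on C57BL/6J. In these mice tamoxifen lets Cre remove a stop cassette in *Prom1*-expressing cells, so that these cells and their progeny carry GFP for life. Per the study's methods, adult mice were 6 weeks old at tamoxifen. All mice received tamoxifen 7 days before surgery. BDL day 14 mice were thus collected at a greater age and longer after tamoxifen than BDL day 3 mice. Bile duct ligation (BDL) was followed by collection at 3 or 14 days, and a day 0 group, called sham by the labels and taken before BDL per the study, is given here only as the level before injury. The nonparenchymal fraction was sorted live on GFP alone, so any cell of that fraction read as GFP(+) could enter a library. By design GFP marks where *Prom1* was once active, not where it is active now. The origin of the sorted cells was not tested here.

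The labels gave 9 libraries to the groups compared (3 of BDL day 3 and 6 of BDL day 14) among 12 in all. The deposited table holds 1 mean per group. Sizes of 3, 3 and 4 libraries for day 0, BDL day 3 and BDL day 14 rebuilt the mean of all 10 libraries to within 0.469% outside the most deviant 1% of genes, and the next best sizes to within 2.70%, so the BDL day 14 mean rests on 4 of 6 labelled libraries. Values below are the authors' group means of upper-quartile normalized counts, which are not corrected for gene length and can be compared between groups but not between genes. No value of a single library was analysed other than each gene's highest one, so values by sample, an SD within a group, p-values and a fit with a library left out could not be given. The number of reads per library is unknown.

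Measures of error of 2 kinds were recovered from the table. The first is an approximate standard error (SE) of the log2 ratio, from the gap between the group means and the geometric mean over all libraries, which grows with the spread between libraries. The second is the lowest possible number of libraries of the higher group that lay above every library of the other group, given both means and the highest library. A gene is called higher or lower where its means differed by more than 1.5-fold, and rose or fell are written only where the log2 ratio also exceeded 2 SE. A mean of up to 4 times the lowest mean of its group was read as the floor, and a ratio against the floor is a bound. The SE is pooled over the 3 groups and is no replicate test. A value given with the highest library taken out assumes that this library, the highest of the series, lay in the higher group. It may instead lie in day 0.

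Kupffer cells are the macrophages that live in the liver sinusoids, where they clear particles, bacteria and old red cells from portal blood. When they are lost or injured, monocytes from the blood enter the liver, become macrophages and take over part of their gene program. Macrophages around scars are known for a lipid-handling program with *Gpnmb*, *Trem2*, *Spp1* and *Cd9*. Bile duct ligation blocks bile flow, and is known for proliferating bile ducts, inflammation and matrix around the portal tracts.

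Of the 12842 genes with a ratio, 2690 were higher at BDL day 14 (20.9%) and 2517 were lower (19.6%). With the SE, 1339 rose (10.4%) and 1264 fell (9.84%). Counts that rose or fell within each gene list below are to be read against these shares. In 17 genes every BDL day 14 library was shown to lie above every BDL day 3 library (0.132%), and in 57 genes the reverse was shown (0.444%), and both counts are lower limits. The median log2 ratio over all genes was -0.0043, and the central 90% of genes lay between -1.51 and 2.06. The median SE was 0.457. The summed means were lower at BDL day 14, and setting both groups to the same sum moved every log2 ratio up by 0.20, after which 3613 genes were higher and 1789 lower. Higher genes were 51.7% of the genes past 1.5-fold as deposited and 66.9% at the same sum.

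**Figure D1:**
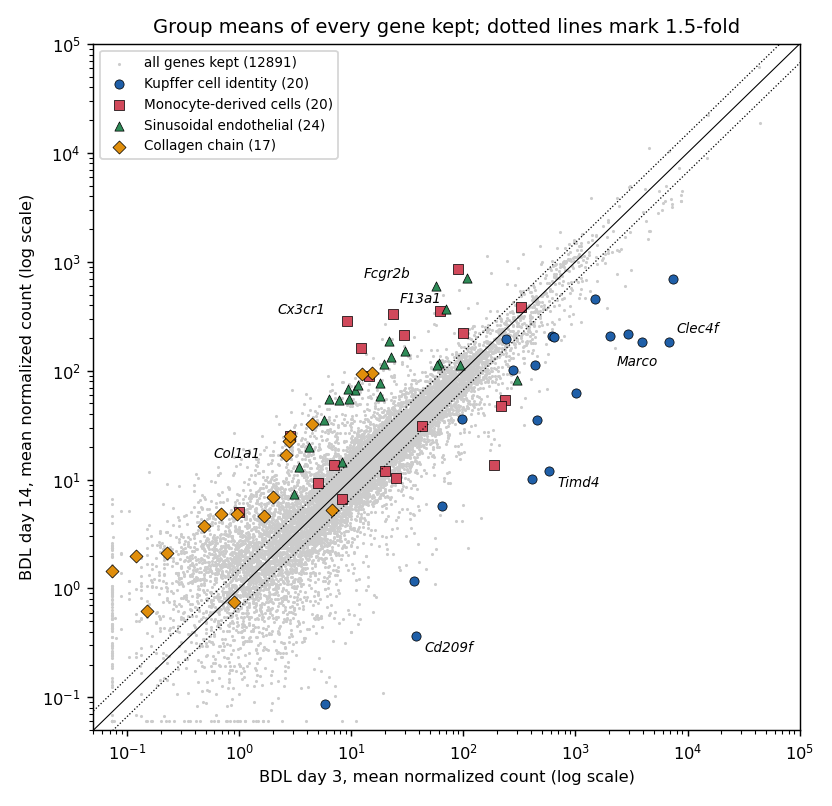
Authors' mean normalized count of each of the 12891 genes kept at BDL day 3 (horizontal, log scale) and BDL day 14 (vertical, log scale), with members of 4 gene lists marked; the solid line is equality and the dotted lines are 1.5-fold. Of 20 Kupffer cell identity genes 19 lie below the lines, and most collagen and sinusoidal endothelial genes lie above them.

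The labels call the cells *Prom1*(+) progenitors and their progeny, and the markers of several cell types were therefore checked first. The 8 macrophage markers had a summed mean of 21190 normalized counts early and 20262 late after BDL, with 11152 before it. Of the 10 cholangiocyte markers, 8 passed the filter, and these had a summed mean of 35.9 early and 52.8 late. *Prom1* itself had means of 0.956 and 1.76 in that order (log2 ratio 0.88 ± 0.92, SE), and *Krt19*, a keratin of bile duct cells, of 12.7 and 14.3 (0.17 ± 0.53). Macrophage markers thus far exceeded cholangiocyte markers in summed counts at both times. The changes below are those of this mixed sorted population, and whether its macrophages descended from *Prom1*-expressing cells was not tested. In a sorted population, fewer cells of a type and less RNA per cell cannot be told apart, and this applies to every group of genes below.

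*Xist*, expressed from the inactive X chromosome, and 4 Y-linked genes had SEs between 2.01 for *Uty* and 3.53 for *Xist*, far above the median SE, and none of the 5 passed both criteria. Per the study each group held both males and females. The sex of each library was not used here, and its part in the results was not tested.

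Genes of Kupffer cell identity fell between BDL day 3 and BDL day 14. Of 20 listed and kept, 19 were lower, all 19 of which fell, and the median log2 ratio was -3.61. In 9 of them every BDL day 3 library lay above every BDL day 14 library. Of the 20 genes, 15 had their highest mean at BDL day 3, and 19 were lower at BDL day 14 than at day 0.

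*Clec4f*, a lectin that marks Kupffer cells in mice (chr6:83644542-83656187, GRCm38), had means of 4610, 6890 and 185 over day 0, BDL day 3 and BDL day 14. This was a 37.2-fold fall (log2 ratio -5.22 ± 0.37), and the 3 BDL day 3 libraries all lay above the 4 of BDL day 14. *Timd4*, a phosphatidylserine receptor of long-lived resident macrophages (chr11:46810800-46844332), went from 579 to 12.1, a 47.9-fold fall (-5.58 ± 0.58), with all BDL day 3 libraries above. *Cd209f*, a C-type lectin, had the largest fall among the genes named, from 37.5 to 0.368 (-6.67 ± 0.52).

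The complement component *C6* (chr15:4727175-4814967) went from 409 to 10.1 (-5.34 ± 0.56), *Marco*, a scavenger receptor for bacteria, from 3920 to 183 (-4.42 ± 0.51) and *Folr2*, a folate receptor, from 1020 to 62.8 (-4.02 ± 0.40). *Cd5l*, a secreted macrophage protein, went from 7440 to 691 (-3.43 ± 0.45), and *Vsig4*, the complement receptor of the immunoglobulin family, from 2040 to 207 (-3.30 ± 0.48). All BDL day 3 libraries lay above in *C6*, *Folr2*, *Cd5l* and *Vsig4*, and at least 2 of 3 did in *Marco*.

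Other members fell less. The hemoglobin scavenger receptor *Cd163* had means of 624 and 206 (-1.60 ± 0.52), *Clec1b* of 440 and 112 (-1.97 ± 0.43), and *Spic*, the factor of red pulp and Kupffer macrophages, of 96.7 and 35.8 (-1.43 ± 0.38). *Cd38* was the member that did not pass, at 241 and 194 (-0.31 ± 0.27). *Kcna2*, a potassium channel, fell from 36.6 to 1.18 (-4.95 ± 1.02), but 1 library could hold 97.5% of its BDL day 3 sum, and with that library taken out the log2 ratio was -0.25.

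**Figure D2:**
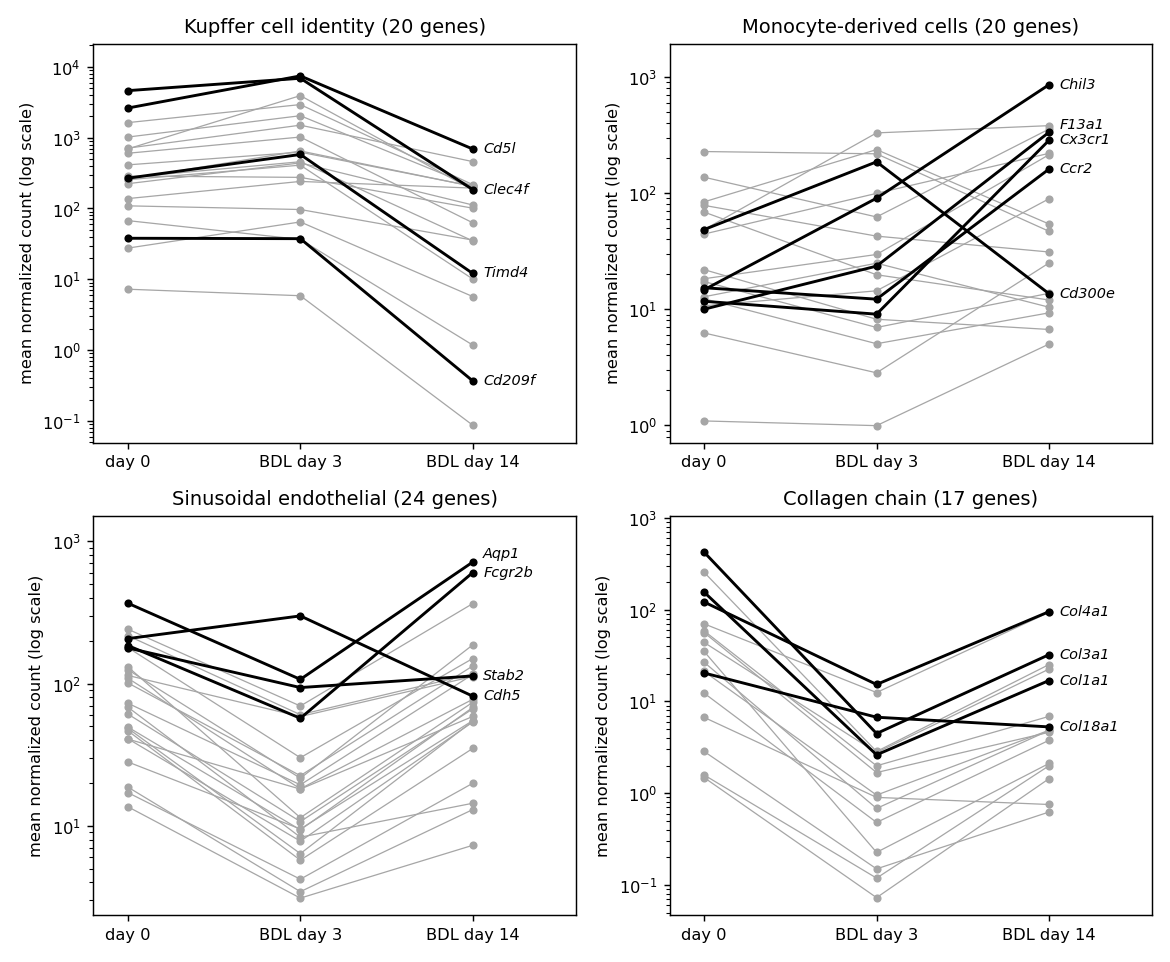
Authors' mean normalized count (log scale) at day 0, BDL day 3 and BDL day 14 for the members of 4 gene lists, 1 line a gene, with selected genes named and drawn in black. Most Kupffer cell identity genes are lowest at BDL day 14, *Cx3cr1*, *Ccr2*, *F13a1* and *Chil3* are high there, and most endothelial and collagen genes have their lowest mean at BDL day 3.

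Transcription factors of macrophages divided. Of 25, 9 fell and 2 rose (median -0.20). *Nr1h3*, which encodes the liver X receptor LXRα that maintains Kupffer cell genes, went from 457 to 34.9 (-3.71 ± 0.53). *Irf7* went from 475 to 64.7 (-2.88 ± 0.30), *Id3* from 275 to 101 (-1.45 ± 0.33), *Rxra*, the partner of LXRα, from 205 to 89.2 (-1.20 ± 0.45) and *Spi1*, which encodes PU.1, from 397 to 188 (-1.08 ± 0.26). The members that rose were *Mef2c*, from 2.28 to 32.2 (3.82 ± 0.60), in which every BDL day 14 library lay above every BDL day 3 library, and *Runx3*, from 0.946 to 7.42 (2.97 ± 0.98). *Irf8*, *Irf5* and *Zeb2* had log2 ratios between -0.20 and 0.22 and did not pass.

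Monocyte-derived cell genes moved both ways. Of 20, 12 were higher and 5 lower, 9 rose and 4 fell, and the median log2 ratio was 1.06. *Cx3cr1*, the fractalkine receptor of monocytes and their progeny (chr9:119901616-120069879), had means of 11.7, 9.06 and 285 over the 3 groups, and BDL day 14 was 31.5-fold higher (4.98 ± 0.47). No other ratio that was not a bound was larger among the genes named, and at least 3 of 4 BDL day 14 libraries lay above every BDL day 3 library. *F13a1*, the coagulation factor XIII subunit made by monocytes (chr13:36867178-37050244), rose from 23.5 to 334 (3.83 ± 0.46), again in at least 3 of 4 libraries.

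*Ccr2*, the receptor by which monocytes leave the marrow, rose from 12.2 to 161 (3.72 ± 0.96), *Chil3*, a chitinase-like protein, from 90.4 to 858 (3.25 ± 0.52) and *S100a4* from 29.6 to 214 (2.85 ± 0.77). *Fn1*, which encodes fibronectin, rose from 62.3 to 356 (2.51 ± 0.74). The members that fell were *Cd300e* (186 to 13.6, -3.77 ± 0.55, all BDL day 3 libraries above), *Plac8* (218 to 46.9, -2.22 ± 0.35), *Ear2* (237 to 54.2, -2.13 ± 0.38) and *Ifitm6* (24.9 to 10.4, -1.26 ± 0.52). *Ly6c2*, the antigen of classical monocytes, was low at both times, at 8.19 and 6.69 (-0.29 ± 1.30).

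Lipid-associated scar macrophage genes were higher in 11 of 18 and lower in 2, with 9 that rose and 1 that fell (median 1.09). All 18 had a higher mean at BDL day 14 than at day 0. *Gpnmb*, a glycoprotein of lipid-laden macrophages, had means of 13.2, 164 and 1130 over the 3 groups (2.78 ± 0.79). *Cd63*, a tetraspanin of late endosomes, rose from 54.3 to 338 (2.64 ± 0.22) and *Fabp5*, a fatty acid binding protein, from 65.8 to 494 (2.91 ± 0.40), both in at least 3 of 4 libraries.

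*Spp1*, which encodes osteopontin, rose from 175 to 792 (2.18 ± 0.35), *Trem2*, a lipid receptor, from 291 to 613 (1.07 ± 0.31) and *Cd9* from 50.3 to 120 (1.25 ± 0.35). *Lpl*, lipoprotein lipase, fell from 1250 to 680 (-0.88 ± 0.34). The macrophage elastase *Mmp12* had means of 6.62, 264 and 69.7 at day 0, BDL day 3 and BDL day 14, and its log2 ratio of -1.92 ± 0.99 was within 2 SE. *Apoe* was at 15300 and 22500 (0.56 ± 0.31), and *Lgals3* at 1550 and 1430 (-0.12 ± 0.23).

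General macrophage genes, by contrast, had a median log2 ratio of -0.55, with 1 of 15 that rose and 3 that fell. *Lyz2*, lysozyme, rose from 4560 to 11200 (1.30 ± 0.39). *Axl* fell from 796 to 358 (-1.15 ± 0.24), and *Csf1r*, the receptor for the growth factor of macrophages, from 2140 to 1230 (-0.80 ± 0.40). *Cd68* (-0.70 ± 0.37), *Adgre1*, which encodes F4/80 (-0.47 ± 0.32), and *Mertk* (-0.22 ± 0.30) did not pass.

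**Figure D3:**
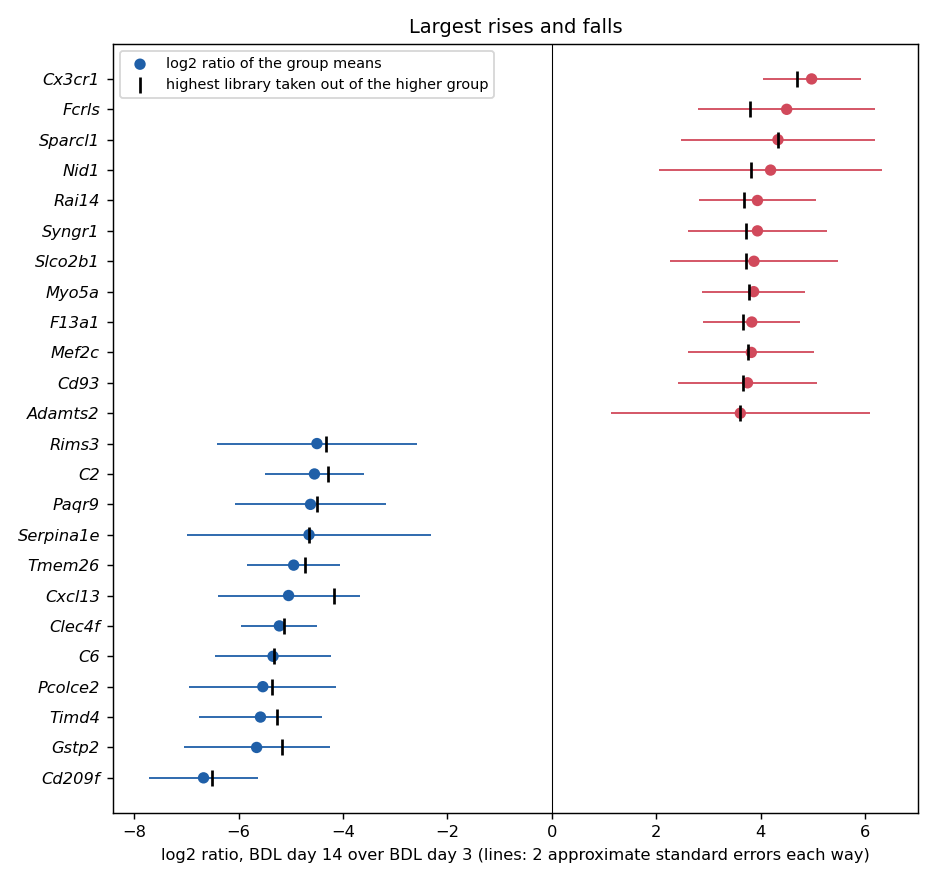
Log2 ratio of the group means (BDL day 14 over BDL day 3) for the 12 largest rises and the 12 largest falls among genes with a mean of at least 10, ranked after the highest library was taken out of the higher group where it could lie there. Points are the ratios, lines 2 approximate SE each way, and black ticks the ratio without the highest library; *Cd209f* is lowest at -6.67 and *Cx3cr1* highest at 4.98.

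The genes with the largest changes were ranked with the highest library taken out of the higher group, other than *Sparcl1*, *Adamts2* and *Serpina1e*, whose highest library could not lie there. They included members of these lists and others. Among the rises were *Fcrls*, an Fc receptor-like protein (2.97 to 67.1, 4.50 ± 0.85), *Myo5a*, an actin-based motor (6.15 to 89.6, 3.86 ± 0.49), *Slco2b1*, an organic anion transporter (2.87 to 42, 3.87 ± 0.80), *Rai14* (1.22 to 18.7, 3.94 ± 0.56) and *Cd93*, a C-type lectin-like receptor of endothelial and myeloid cells (19.8 to 266, 3.75 ± 0.66). Complete separation of the 4 BDL day 14 libraries from the 3 of BDL day 3 was shown for *Myo5a* and *Cd93*. *Nid1*, a basement membrane protein (2.11 to 38.5, 4.19 ± 1.07), *Sparcl1* (0.651 to 13.1, 4.33 ± 0.93) and *Adamts2*, a procollagen protease (0.457 to 5.58, 3.61 ± 1.24), are matrix genes.

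The falls included *Pcolce2*, a procollagen protease enhancer (109 to 2.35, -5.54 ± 0.70), *Tmem26* (46.2 to 1.5, -4.94 ± 0.44), *Paqr9* (56.4 to 2.29, -4.62 ± 0.72) and *Rims3* (39.8 to 1.76, -4.50 ± 0.96), in each of which all BDL day 3 libraries lay above. *Gstp2*, a glutathione transferase, fell from 55.9 to 1.11 (-5.65 ± 0.70), with 2 of 3 libraries above at least. *Gstp2* has a near-identical paralog, *Gstp1* (129 to 75.6, -0.77 ± 0.33), and reads could be split between them. *Serpina1e*, an antiprotease of hepatocytes from a family of near-identical copies, had its highest mean at day 0 (284) and fell from 52.5 to 2.09 (-4.65 ± 1.17). *Cxcl13*, which attracts B cells, fell from 145 to 4.40 (-5.04 ± 0.68), and 1 library could hold 63.7% of its BDL day 3 sum.

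Complement is a cascade of plasma and surface proteins that tags targets for phagocytes. Of 24 members, 11 fell and 2 rose (median -0.62). The 3 chains of C1q, which starts the classical pathway, all fell: *C1qa* from 4530 to 1900 (-1.25 ± 0.19), *C1qb* from 6320 to 3640 (-0.80 ± 0.27) and *C1qc* from 4450 to 1620 (-1.46 ± 0.21). After quantile normalization of both groups the log2 ratios were -0.67, -0.07 and -0.94, which ends the call of *C1qb*. *C2* fell from 97 to 4.15 (-4.55 ± 0.48), *C4b* from 405 to 83.8 (-2.27 ± 0.43), and *Cfp*, which encodes properdin, from 2780 to 596 (-2.22 ± 0.19). The anaphylatoxin receptor *C3ar1* rose from 125 to 256 (1.03 ± 0.26), and *C3* was at 174 and 139 (-0.32 ± 0.35).

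Phagocytic receptors differed member by member. Of 13 scavenger receptors 4 fell and 1 rose, *Stab1*, a receptor of endothelial cells and macrophages (131 to 420, 1.68 ± 0.52). Besides *Marco* and *Cd163*, those that fell were *Colec12* (88.8 to 39.4, -1.17 ± 0.34) and *Scarb1*, the HDL receptor (254 to 124, -1.03 ± 0.48). *Msr1* was at 389 and 388 (-0.00 ± 0.38). Among 11 receptors and ligands for apoptotic cells, 6 rose and 2 fell. The bridging ligands *Gas6* (51.9 to 154, 1.57 ± 0.45), *Pros1* (29.6 to 66.5, 1.17 ± 0.48) and *Mfge8* (14.3 to 56.8, 1.99 ± 0.50) rose, as did *Havcr2*, which encodes TIM-3 (8.87 to 31.7, 1.84 ± 0.50), while *Timd4* and *Axl* fell.

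Among 6 Fc receptor genes, the inhibitory receptor *Fcgr2b* (chr1:170958617-170976547) rose from 57 to 603, 10.6-fold (3.40 ± 0.42), with all 4 BDL day 14 libraries above all 3 of BDL day 3. The activating receptor *Fcgr4* fell from 415 to 216 (-0.94 ± 0.34), and the shared signalling chain *Fcer1g* from 691 to 442 (-0.64 ± 0.31). *Fcgr3* was at 850 and 1050 (0.30 ± 0.38). *Fcgr2b* is expressed by liver sinusoidal endothelial cells as well as by macrophages, and is also a member of the endothelial list described below.

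Most antigen presentation genes of either class did not pass. In MHC class II, which shows peptides from engulfed material, 4 of 11 rose and none fell (median 0.14). These were *H2-Aa* (481 to 1410, 1.55 ± 0.59), *H2-Ab1* (306 to 875, 1.52 ± 0.60), *H2-Eb1* (246 to 1020, 2.05 ± 0.66) and the invariant chain *Cd74* (731 to 1870, 1.36 ± 0.52). In MHC class I, 6 of 16 fell and none rose (median -0.40), among them *H2-K1* (1100 to 508, -1.11 ± 0.16), *H2-D1* (2470 to 1250, -0.98 ± 0.21), *B2m* (1820 to 1190, -0.61 ± 0.20, and -0.35 after quantile normalization) and the immunoproteasome subunit *Psmb9* (67.8 to 33.9). Class I heavy chain genes are near-identical copies and their reads could be split between them. At the same sum of both groups 3 class I members were lower by more than 1.5-fold.

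Interferon-stimulated genes are induced by interferons, and many encode antiviral proteins. Of 34, 14 were lower and none higher, 8 fell and none rose (median -0.48). With the highest library of each gene taken out of the higher group the median was 0.03. Only 3 of the 34 had their highest mean at BDL day 3, so the library taken out may often lie in day 0. All 34 had a lower mean at BDL day 14 than at day 0. Besides *Irf7*, the falls included *Oas2* (21.3 to 6.85, -1.64 ± 0.41), *Dhx58* (53.5 to 19.8, -1.43 ± 0.28), *Oas1a* (115 to 49.2, -1.22 ± 0.52) and *Bst2* (169 to 95.4, -0.82 ± 0.29). *Isg15* (13.4 and 13.2, -0.02 ± 0.84), *Rsad2* (13.7 and 13.2, -0.05 ± 0.42) and *Ifih1* (16.6 and 15.3, -0.12 ± 0.20) did not pass. The 250 bases before the start of *Oas1a* are printed for the interferon response motif (GAAA, then NN, then GAAA) in capitals, where 2 matches overlap (chr5:120907526-120907775, minus strand, sequence from RefSeq, GRCm38.p6).
Oas1a: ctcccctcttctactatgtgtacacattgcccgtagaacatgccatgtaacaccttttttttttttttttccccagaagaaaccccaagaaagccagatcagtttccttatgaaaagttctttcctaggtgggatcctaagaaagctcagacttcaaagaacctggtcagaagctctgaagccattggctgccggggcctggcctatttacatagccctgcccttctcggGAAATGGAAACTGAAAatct
This motif, searched on both strands, stood in that window of 13 of the 23 listed interferon genes with an entry (56.5%) and of 3.46% of all 27025 genes with an entry. Among genes kept with an entry the share was 3.52%. Of the 13 with a match 2 fell, and of the 10 without a match 3 fell.

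NRF2, the factor of the antioxidant response, drives genes for glutathione, thioredoxin and heme breakdown. Of 24 members, 16 were lower and 2 higher, 12 fell and 1 rose (median -0.71), and 18 had their highest mean at BDL day 3. *Hmox1*, heme oxygenase, had means of 606, 3140 and 840 at day 0, BDL day 3 and BDL day 14 (-1.90 ± 0.38). *Txnrd1*, thioredoxin reductase, fell from 213 to 63 (-1.76 ± 0.21), *Txn1* from 417 to 154 (-1.44 ± 0.18) and *Gclm*, a subunit of the first enzyme of glutathione synthesis, from 67.7 to 38.4 (-0.82 ± 0.19). *Ephx1*, microsomal epoxide hydrolase, fell most, from 347 to 32 (-3.44 ± 0.18), with all BDL day 3 libraries above. *Nqo1* rose from 1.23 to 5.83 (2.24 ± 0.88), and *Nfe2l2*, which encodes NRF2, was at 106 and 94.9 (-0.16 ± 0.33). The window before *Txnrd1* is printed with the core of the antioxidant response motif, TGACNNNGC, in capitals (chr10:82858956-82859205, plus strand).
Txnrd1: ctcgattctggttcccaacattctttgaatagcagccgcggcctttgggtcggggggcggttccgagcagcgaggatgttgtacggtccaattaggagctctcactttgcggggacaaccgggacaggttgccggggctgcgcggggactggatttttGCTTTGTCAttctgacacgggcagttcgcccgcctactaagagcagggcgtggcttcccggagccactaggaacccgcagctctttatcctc
On either strand this motif was found for 7 of 20 members with an entry (35.0%), against 11.5% of all genes with an entry. Among genes kept with an entry the share was 13.9%. Of the 7 with a match 3 fell, and of the 13 without a match 7 fell.

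Of 19 iron and heme recycling genes 8 fell, *Hmox1* among them, and none rose (median -0.73). The iron exporter *Slc40a1*, ferroportin, went from 1500 to 459 (-1.71 ± 0.32), *Blvrb*, biliverdin reductase B, from 405 to 180 (-1.17 ± 0.40), *Slc11a1*, a metal transporter of the phagosome, from 502 to 260 (-0.95 ± 0.27) and *Ftl1*, ferritin light chain, from 15000 to 9040 (-0.73 ± 0.20). *Fth1* was at 5570 and 4420 (-0.33 ± 0.34).

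Lipid and lysosome genes showed a mixed picture. In cholesterol efflux, 4 of 13 fell and none rose, namely *Nr1h3*, *Scarb1*, *Apoc1* (2260 to 161, -3.81 ± 0.37, all BDL day 3 libraries above) and *Pltp*, phospholipid transfer protein (1110 to 279, -1.99 ± 0.33). The transporters *Abca1* (103 and 126, 0.29 ± 0.35) and *Abcg1* (97.3 and 83.1, -0.23 ± 0.32) did not pass. None of 20 genes of cholesterol synthesis and uptake passed both criteria. Of 33 lysosomal genes 5 rose (15.2%, against 10.4% of all genes) and 1 fell (3.03%, against 9.84%), with a median of 0.08. *Psap*, prosaposin, rose from 2980 to 4850 (0.70 ± 0.34), *Galc* from 36.6 to 66.8 (0.87 ± 0.24) and *Arsb* from 6.07 to 23.7 (1.97 ± 0.61), and *Neu1* fell from 134 to 79.3 (-0.76 ± 0.17). *Lamp1* was at 1410 and 1590 (0.17 ± 0.21).

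Cathepsins moved little apart from a few. Of 15 cathepsins and inhibitors, *Ctse* (0.424 to 4.64, 3.45 ± 0.62) and *Ctsk* (2.7 to 9.09, 1.75 ± 0.70) rose, and *Ctsf* (53.1 to 13.1, -2.02 ± 0.41) and *Ctsc* (1110 to 563, -0.98 ± 0.37) fell. *Ctsb* (8410 and 7290, -0.21 ± 0.16) and *Ctsd* (4180 and 4650, 0.15 ± 0.24) stayed within 1.5-fold. Of 25 genes of the V-ATPase, the lysosomal proton pump, and of nutrient sensing, 5 fell and none rose, with *Atp6v1f* the largest fall (306 to 142, -1.11 ± 0.36). The E-box CACGTG, the core of the element shared by lysosomal genes, stood before 8 of 27 lysosomal genes with an entry (29.6%) and 6.86% of all genes with an entry. Among genes kept with an entry the share was 9.8%. None of the 8 lysosomal genes with a match rose or fell.

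S100 proteins, annexins and galectins bind calcium, membranes or glycans and are high in motile and activated cells. Of 19 genes in their list, which also holds *Vim*, 8 rose, *Vim* among them, and none fell (median 0.45). *Lgals1*, galectin-1, rose 6.06-fold, from 90.8 to 550, *Anxa1* from 23.8 to 118 (2.31 ± 0.34), *S100a6* from 48 to 233 (2.28 ± 0.58), *S100a10* from 28.5 to 114 (2.00 ± 0.47), *Vim*, vimentin, from 244 to 619 (1.34 ± 0.33) and *Anxa2* from 158 to 303 (0.94 ± 0.33). *S100a8* and *S100a9*, which neutrophils carry in quantity, did not pass (-0.38 ± 0.74 and -0.78 ± 0.79).

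Chemokines attract leukocytes through matching receptors. Of 25 ligands 3 rose and 6 fell. *Ccl8* rose from 2.46 to 24.6 (3.32 ± 0.67), in at least 3 of 4 libraries, *Pf4* from 82.7 to 221 (1.42 ± 0.45) and *Ccl3* from 23.5 to 57.2 (1.28 ± 0.26). Besides *Cxcl13*, *Ccl6* fell from 1840 to 968 (-0.93 ± 0.41) and *Ccl24* from 245 to 93.9 (-1.38 ± 0.52). *Ccl2*, the ligand of CCR2, was at 10 and 17.2 (0.78 ± 0.58), and *Cxcl12* at 2.75 and 4.95 (0.85 ± 0.71).

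Of 14 chemokine receptors 5 rose and 3 fell. *Ccr1* rose from 18.6 to 196 (3.40 ± 0.58) beside *Ccr2* and *Cx3cr1*, and *Ccr3* fell from 7.05 to 0.531 (-3.73 ± 0.81). *Cx3cl1*, the ligand of CX3CR1, fell from 4.9 to 0.541 (-3.18 ± 1.23). Of 21 cytokine genes and regulators 6 fell and 1 rose. *Hbegf*, a growth factor of the EGF family, fell from 39.9 to 5.22 (-2.93 ± 0.64), *Il18* from 44.2 to 12.3 (-1.85 ± 0.57), *Il1a* from 74.8 to 33.4 (-1.16 ± 0.34), the IL-1 antagonist *Il1rn* from 50.7 to 17.4 (-1.54 ± 0.57), *Il10* from 9.93 to 2.5 (-1.99 ± 0.94) and *Il6* from 2.96 to 0.266 (-3.48 ± 1.34). *Osm*, oncostatin M, rose from 2.76 to 15.9 (2.53 ± 0.74). *Il1b* (153 and 138), *Tnf* (9.11 and 11.9) and *Tnfsf12*, which encodes TWEAK (23.4 and 27.5), stayed within 1.5-fold.

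Toll-like receptors sense microbial products. Of 28 receptor and inflammasome genes 3 rose and 3 fell, 10.7% each, against 10.4% and 9.84% of all genes. Those that rose were *Tlr13* (128 to 228, 0.83 ± 0.24), *Tlr7* (66.2 to 120, 0.86 ± 0.24) and *Tlr8* (11.5 to 21.7, 0.92 ± 0.36). *Tlr12* fell from 35.4 to 4.81 (-2.88 ± 0.47), and *Aim2* and *Nod1* fell by 0.92 and 0.82 on the log2 scale, though the log2 ratio of *Nod1* was 1.65 with its highest library taken out. *Tlr4*, the endotoxin receptor, was at 33.2 and 35.1 (0.08 ± 0.33), and *Tlr2* at 70.4 and 68.9.

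**Figure D4:**
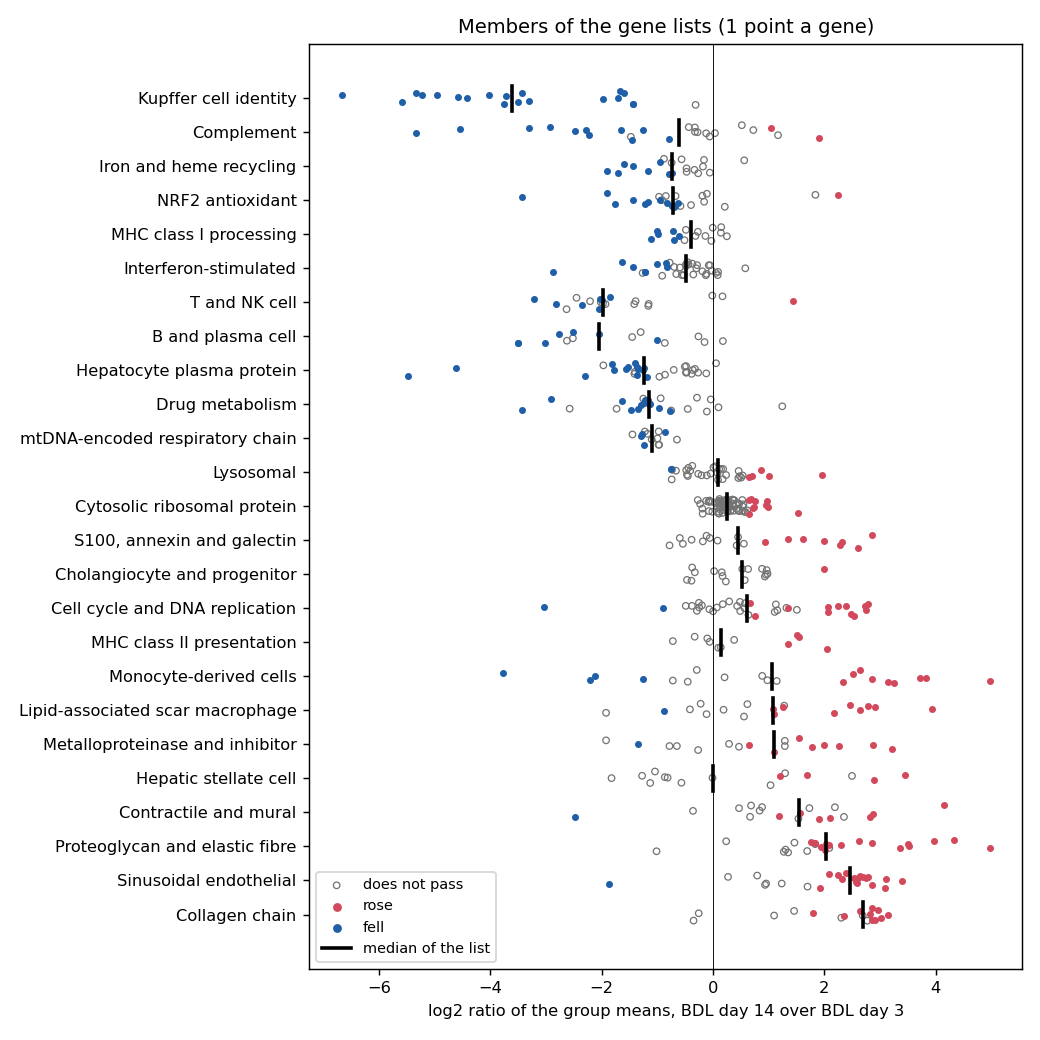
Log2 ratio (BDL day 14 over BDL day 3) of each member of 25 gene lists, 1 point a gene and at its bound where 1 group is at the floor; red points rose, blue points fell, open points did not pass 1.5-fold and 2 SE, and the black line is the median of the list. Medians run from -3.61 for Kupffer cell identity to 2.69 for collagen chains.

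Liver sinusoidal endothelial cells line the sinusoids, scavenge waste molecules and carry fenestrae. Of 24 endothelial genes, 22 were higher and 1 lower, 17 rose and 1 fell, and the median log2 ratio was 2.46. In 23 of the 24, BDL day 3 had the lowest mean of the 3 groups, and in 13 the mean at BDL day 14 was above that at day 0. *Aqp1*, a water channel, had means of 367, 107 and 715 at day 0, BDL day 3 and BDL day 14 (2.74 ± 0.86), and at least 3 of 4 BDL day 14 libraries lay above every BDL day 3 library. *Clec4g*, a lectin of sinusoidal endothelium, rose from 69.5 to 365 (2.39 ± 0.78), *Kdr*, VEGF receptor 2, from 22.5 to 133 (2.56 ± 0.83), *Tek*, the angiopoietin receptor, from 7.79 to 53.6 (2.78 ± 0.79), *Ptprb* from 21.6 to 187 (3.11 ± 0.70) and *Eng*, endoglin, from 30.1 to 150 (2.32 ± 0.91).

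*Stab2*, a hyaluronan receptor of the sinusoids, was at 93.7 and 113 (0.27 ± 0.70), *Pecam1* at 58.6 and 112 (0.93 ± 0.50) and *Lyve1* at 18.1 and 58.7 (1.70 ± 0.97), and these did not pass. *Cdh5*, VE-cadherin, went the other way, with means of 207, 299 and 81.5 (-1.88 ± 0.68). The SEs of the endothelial genes were mostly above the median over all genes, so the libraries of 1 or more groups differed in these genes.

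Matrix genes were higher at BDL day 14 as a group. Of 17 collagen chains 15 were higher and none lower, 10 rose, and the median log2 ratio was 2.69. In 15 of them BDL day 3 had the lowest mean, and in 15 the BDL day 14 mean lay below day 0. *Col3a1*, a fibrillar collagen, had means of 422, 4.47 and 32.3 at day 0, BDL day 3 and BDL day 14 (2.85 ± 0.98), and *Col1a2* of 255, 2.85 and 25.2 (3.14 ± 1.19). *Col4a1* and *Col4a2*, the main chains of basement membrane, rose from 15.3 to 95 (2.63 ± 0.94) and from 12.5 to 93.4 (2.90 ± 1.08), and *Col4a2* was above its day 0 mean of 70. *Col1a1* (chr11:94936224-94953042) was at 155, 2.62 and 16.9, and its log2 ratio of 2.69 ± 1.63 was within 2 SE.

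Proteoglycan and elastic fibre genes were higher in 22 of 24 and rose in 15, with none that fell (median 2.03). All 24 had a lower mean at BDL day 14 than at day 0. *Sparc*, a collagen-binding protein, rose from 55 to 271 (2.30 ± 0.53), *Bgn*, biglycan, from 14.1 to 57.8 (2.04 ± 0.87), *Dcn*, decorin, from 6.35 to 21.6 (1.77 ± 0.36) and *Fbn1*, fibrillin-1, from 0.811 to 8.27 (3.35 ± 1.19). *Lum*, lumican, rose from the floor to 4.59, at least 15.7-fold higher. *Dpt*, dermatopontin, rose from the floor to 9.16, at least 31.4-fold higher. *Aspn*, asporin, had 1.04 at BDL day 14, and its bound of 1.83 on the log2 scale was within 2 SE. *Postn*, periostin, was lower, at 6.91 and 3.42 (-1.01 ± 0.84), and did not pass.

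Contractile and mural genes, which smooth muscle cells, pericytes and myofibroblasts use, were higher in 15 of 18 with a ratio, and 7 rose (median 1.55). *Acta2*, which encodes smooth muscle actin (chr19:34241090-34255590), had means of 228, 3.86 and 19.7 at day 0, BDL day 3 and BDL day 14, a 5.10-fold difference whose log2 ratio of 2.35 ± 1.18 was within 2 SE. *Tagln*, transgelin, rose from 3.35 to 14.4 (2.10 ± 0.52), *Myl9*, a myosin light chain, from 1.79 to 6.7 (1.90 ± 0.44), *Tpm1*, a tropomyosin, from 14.8 to 33.8 (1.19 ± 0.29), and the pericyte genes *Rgs5* from 4.96 to 35 (2.82 ± 0.45) and *Kcnj8* from 1.08 to 19.1 (4.14 ± 0.81). With the highest library taken out, the log2 ratios of *Tpm1* and *Rgs5* were -2.44 and -0.31, and both genes had their highest mean at day 0. *Actn1*, the nonmuscle actinin, fell from 152 to 27.1 (-2.49 ± 0.30), with all BDL day 3 libraries above, and *Flna* was at 349 and 272 (-0.36 ± 0.45). The window before *Myl9* is printed with its CArG box, the element bound by serum response factor, in capitals (chr2:156775214-156775463, plus strand).
Myl9: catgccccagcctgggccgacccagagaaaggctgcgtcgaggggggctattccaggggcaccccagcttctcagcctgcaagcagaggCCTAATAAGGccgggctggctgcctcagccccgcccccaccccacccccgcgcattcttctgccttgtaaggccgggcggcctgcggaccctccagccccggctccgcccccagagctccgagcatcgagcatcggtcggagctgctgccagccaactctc
It was the 1 member of 16 with an entry that had a CArG box on either strand in this window (6.25%). Of all genes with an entry 1.62% had one, and of genes kept with an entry 1.42%.

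Hepatic stellate cell genes did not move as a group. Of 15 kept, 7 were higher and 6 lower, 4 rose and none fell, and the median was -0.01. *Cygb*, cytoglobin, rose from 0.788 to 8.62 (3.45 ± 0.86), but was at 0.01 on the log2 scale with its highest library taken out, while *Lrat*, which stores retinol as esters, went from 0.59 to the floor, *Des*, desmin, was at 1.66 and 1.12 (-0.57 ± 1.04) and *Pdgfrb* at 0.319 and 1.8, within 2 SE. *Thy1*, a marker of portal fibroblasts, was at 7.06 and 4.01 (-0.82 ± 0.68).

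Matrix-degrading enzymes and their inhibitors were higher in 10 of 17, with 8 that rose and 1 that fell (median 1.10). *Mmp14* rose from 45.2 to 96.7 (1.10 ± 0.52), *Mmp2*, a gelatinase, from 0.676 to 6.26 (3.21 ± 0.91), *Mmp7*, matrilysin, from 3.87 to 18.6 (2.26 ± 1.05) and *Adam8* from 16.9 to 67.1 (1.99 ± 0.54). The inhibitors *Timp3* (9.86 to 72.5, 2.88 ± 0.56) and *Timp1* (1.26 to 4.3, 1.77 ± 0.67) rose as well, and *Mmp19* fell from 34.1 to 13.4 (-1.35 ± 0.31).

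In the TGF-beta and BMP pathway 8 of 31 rose and 5 fell. Of the ligands, *Tgfb1* was at 117 and 90.2 (-0.38 ± 0.66) and *Tgfb3* fell from 15.9 to 2.93 (-2.44 ± 0.52). Among receptors, *Tgfbr1* rose from 46.5 to 89.4 (0.94 ± 0.23), *Tgfbr3* from 3.18 to 26.6 (3.06 ± 0.66) and *Bmpr2* from 15.6 to 38.9 (1.32 ± 0.56), *Acvrl1*, an endothelial and Kupffer cell receptor for BMP9, fell from 102 to 27.6 (-1.89 ± 0.32), and *Tgfbr2* was at 98.2 and 140 (0.51 ± 0.34). Of proteins that store or activate TGF-beta, *Thbs1*, thrombospondin-1, rose from 14.4 to 89.3 (2.63 ± 0.73) and *Ltbp4* from 7.29 to 38.3 (2.39 ± 1.01), while *Itgav* (0.05 ± 0.29) and *Itgb5* (-0.17 ± 0.29) did not pass. *Tgfbi*, a target of the pathway, rose from 337 to 1170 (1.80 ± 0.46). The BMP targets *Id1* and *Id3* fell by 1.06 and 1.45 on the log2 scale, and the log2 ratio of *Id1* was -0.44 with its highest library taken out.

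Of 21 integrin and adhesion genes 6 rose and 3 fell. *Itga6*, a laminin receptor chain, rose from 8.28 to 79.1 (3.26 ± 0.54), with all 4 BDL day 14 libraries above all 3 of BDL day 3. *Itga1* rose from 2.94 to 25.3 (3.11 ± 0.80), *Itgb3* from 1.74 to 20.1 (3.53 ± 0.88) and *Itga4* from 27.9 to 58.5 (1.07 ± 0.33). *Itgal*, the LFA-1 chain of leukocytes, fell from 339 to 131 (-1.37 ± 0.38) and *Itga9* from 214 to 86.5 (-1.31 ± 0.29).

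In the Notch pathway 6 of 17 rose and 2 fell. The ligand *Jag1* rose from 0.393 to 5.57 (3.83 ± 0.61), the endothelial receptor *Notch4* from 0.949 to 6.52 (2.78 ± 0.55) and *Rbpj*, the DNA-binding partner of Notch, from 9.91 to 35.6 (1.84 ± 0.43). The target genes *Hes1* (27.2 to 11.1, -1.29 ± 0.36) and *Hey1* (9.5 to 4.83, -0.98 ± 0.34) fell, and *Notch2* was at 29.5 and 40.9 (0.47 ± 0.22). The log2 ratio of *Hes1* was -0.21 with its highest library taken out. In the Hippo pathway 4 of 17 rose and 1 fell. *Yap1* (2.02 to 5.84, 1.53 ± 0.65), its partner *Wwtr1*, which encodes TAZ (5.21 to 16.6, 1.67 ± 0.53), and the target *Ccn2* (7.21 to 62.5, 3.12 ± 1.00) rose, and the target *Ccn1* fell from 19.8 to 4.12 (-2.26 ± 0.48). Under the names *Ctgf* and *Cyr61*, the study states that its RNA-seq did not detect *Ccn2* and *Ccn1* in *Prom1*(+) cells. The log2 ratio of *Yap1* was 0.36 with its highest library taken out.

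Of 17 bile duct and progenitor genes kept, 7 were higher, 1 rose and none fell (median 0.53). The median was -0.38 with the highest library of each gene taken out, and 0.16 over members with a mean of at least 10. In 14 of the 17 the BDL day 14 mean lay below day 0, so the library taken out may often lie in day 0. The gene that rose was *Tspan8*, a tetraspanin of epithelium (2.6 to 10.3, 1.99 ± 0.69). *Epcam* was at 4.97 and 7.69 (0.63 ± 0.64), *Krt7* at 5.61 and 10.7 (0.93 ± 0.85), *Cdh1*, E-cadherin, at 7.28 and 14.2 (0.96 ± 0.57), *Sox9* at 1.18 and 0.853 (-0.47 ± 1.37) and *Slc4a2*, the biliary anion exchanger, at 15.3 and 11.8 (-0.37 ± 0.28). *Krt8* and *Krt18* were at 60.1 and 60.9 and at 45.3 and 50.5. *Cftr* and *Sctr* had means under 1 over all libraries and were not kept. The SEs of most of these genes were larger than their log2 ratios.

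Most hepatocyte genes were lower. Of 31 plasma protein genes 20 were lower and none higher, 14 fell and none rose (median -1.24, or -0.61 with the highest library of each gene taken out), and 30 had a lower mean at BDL day 14 than at day 0. Only 2 of the 31 had their highest mean at BDL day 3, so the library taken out may often lie in day 0. *Alb*, albumin, had means of 2440, 642 and 271 at day 0, BDL day 3 and BDL day 14 (-1.24 ± 0.36), and *Ttr*, transthyretin, of 152, 37.4 and 14.7 (-1.35 ± 0.43). *Apoa1* fell from 109 to 45.7 (-1.25 ± 0.59), or -0.16 with the highest library, which may lie in day 0, taken out of BDL day 3. *Serpina1a*, from a family of near-identical copies, fell from 102 to 28.9 (-1.82 ± 0.43). *Fabp1* fell from 6 to the floor, at least 24.6-fold lower, and *Mup3*, from a family of near-identical copies, went from 10.9 to the floor, at least 44.7-fold lower, though for either gene no more than 1 of 3 BDL day 3 libraries was shown to lie above every BDL day 14 library. Of 9 hepatocyte transcription factors 3 fell and 1 rose, and *Hnf4a* fell from 6.47 to 3.74 (-0.79 ± 0.30), and *Trf*, transferrin, which macrophages also express, was at 1130 and 939 (-0.27 ± 0.26).

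Of 24 drug metabolism genes 12 fell and none rose (median -1.15). *Cyp2e1* fell from 22.3 to 8.05 (-1.47 ± 0.50), *Cyp3a11* from 37.7 to 12.2 (-1.63 ± 0.61), *Adh1* from 20.1 to 8.2 (-1.29 ± 0.29) and *Aldh2* from 711 to 300 (-1.24 ± 0.31). The 7 hepatocyte markers had summed means of 916 and 419, and 5 of them fell. Their part in the fall of other genes that hepatocytes express was not tested. In bile acid transport and synthesis, *Abcb4*, the phospholipid flippase, fell from 13.6 to 0.967 (-3.81 ± 0.79), with all BDL day 3 libraries above, *Abcc3*, an exporter of conjugated bile acids, from 375 to 153 (-1.29 ± 0.32), and *Abcc4*, another, rose from 14.3 to 23.8 (0.73 ± 0.36). Of 23 fatty acid oxidation genes 6 fell and 1 rose, with *Acot1* (33.1 to 4.31, -2.94 ± 0.34) and *Cpt1a* (77.2 to 45.4, -0.77 ± 0.26) among the falls. Of 9 gluconeogenesis genes 3 fell and none rose.

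Most lymphocyte genes were lower. Of 20 T and NK cell genes 17 were lower, 7 fell and 1 rose (median -1.98), and of 16 B and plasma cell genes 12 were lower and 7 fell (median -2.05). *Cd3g* fell from 6.56 to 0.71 (-3.21 ± 1.25), *Cd2* from 7.49 to 1.46 (-2.36 ± 0.69), *Cd79a* from 10.5 to 1.55 (-2.76 ± 1.25) and *Bank1* from 36.7 to 8.85 (-2.05 ± 0.22). *Igkc* was at 184, 33 and 13.4 over the 3 groups, and *Il7r*, a cytokine receptor, rose from 3.28 to 8.88 (1.44 ± 0.57). Many of these genes had an SE above 1.

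Of 14 neutrophil genes 2 rose and 3 fell, and of 10 red cell genes none passed both criteria. *S100a9* was at 139 and 80.9, and *Hbb-bs*, a beta globin, at 29700, 2760 and 1680 over the 3 groups (-0.72 ± 0.99). The 3 erythroid markers summed to 47420, 4829 and 2948. Of 14 dendritic cell genes 5 rose and 3 fell. *Zbtb46*, the factor of conventional dendritic cells, rose from 1.39 to 12.3 (3.15 ± 0.82), *Cd24a* from 22.4 to 88.4 (1.98 ± 0.50) and *Clec10a* from 27.5 to 64.6 (1.23 ± 0.38), while *Siglech*, of plasmacytoid cells, fell from 4 to 0.424 (-3.24 ± 0.83), *Ccr7* from 4.64 to 0.861 (-2.43 ± 0.96) and *Batf3* from 28.8 to 7.22.

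Of 36 genes of the cell cycle and DNA replication, 18 were higher and 2 lower, 12 rose and 2 fell (median 0.60). The median was 0.034 over members with a mean of at least 10, and 0.28 with the highest library of each gene taken out. *Top2a*, topoisomerase of dividing cells, rose from 1.12 to 5.28 (2.24 ± 0.45), *Ccnb2*, a mitotic cyclin, from 1.2 to 5.02 (2.06 ± 0.71), *Ccna2* from 0.705 to 4.75 (2.75 ± 1.11), *Rrm2* from 0.596 to 3.11 (2.38 ± 1.03) and *Stmn1* from 8.61 to 22 (1.35 ± 0.45). *Tk1*, thymidine kinase, went the other way, from 76.1 to 9.31 (-3.03 ± 0.62), as did *E2f1* (15.6 to 8.36, -0.90 ± 0.34). *Mki67* was at 12.3, 5.9 and 12.9 over the 3 groups (1.13 ± 0.71), *Pcna* at 97.3 and 102 (0.07 ± 0.39), and *Mcm2*, *Mcm3*, *Mcm4* and *Mcm7*, of the replicative helicase, had log2 ratios between -0.29 and -0.07. The windows before *Top2a* (chr11:99024190-99024439, minus strand) and *Ccnb2* (chr9:70421555-70421804, minus strand) are printed with the CCAAT motif on either strand in capitals.
Top2a: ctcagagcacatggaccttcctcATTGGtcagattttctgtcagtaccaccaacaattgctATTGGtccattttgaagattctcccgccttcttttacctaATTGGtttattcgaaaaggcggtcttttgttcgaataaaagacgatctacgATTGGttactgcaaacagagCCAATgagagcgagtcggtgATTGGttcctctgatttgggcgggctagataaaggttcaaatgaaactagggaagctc
Ccnb2: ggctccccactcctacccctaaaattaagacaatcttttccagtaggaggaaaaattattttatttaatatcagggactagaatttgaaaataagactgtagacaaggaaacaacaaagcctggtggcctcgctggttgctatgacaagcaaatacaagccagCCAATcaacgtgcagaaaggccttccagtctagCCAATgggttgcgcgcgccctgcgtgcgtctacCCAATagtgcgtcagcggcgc
The *Top2a* window holds 6 matches and the *Ccnb2* window 3. CCAAT was found before 23 of 29 members with an entry (79.3%) and before 37.5% of all genes with an entry. Among genes kept with an entry the share was 40.5%. Of the 23 members with a match 9 rose, as did 1 of the 6 without a match.

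Genes of the response to dissociation and stress did not move as a group. Of 24 immediate-early genes 3 rose (12.5%, against 10.4% of all genes) and 4 fell (16.7%, against 9.84%). *Klf2*, a factor induced by flow, fell from 152 to 38.8 (-1.97 ± 0.33), *Socs3* rose from 23.3 to 87 (1.90 ± 0.64), and *Fos* (152 and 183, 0.27 ± 0.58) and *Junb* (194 and 157, -0.31 ± 0.47) did not pass. Of 18 heat shock genes 3 fell, among them *Hspa1a* (94.2 to 15.5, -2.60 ± 0.50) and its near-identical copy *Hspa1b* (67.4 to 10.3, -2.71 ± 0.72), between which reads could be split. The window before *Hspa1a* is printed with the heat shock motif GAANNTTC in capitals (chr17:34972157-34972406, minus strand).
Hspa1a: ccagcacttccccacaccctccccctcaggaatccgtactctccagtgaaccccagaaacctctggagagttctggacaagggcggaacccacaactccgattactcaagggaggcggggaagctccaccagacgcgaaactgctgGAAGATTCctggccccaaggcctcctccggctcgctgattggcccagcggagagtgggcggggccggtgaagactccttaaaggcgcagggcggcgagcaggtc
It stood before 6 of 13 members with an entry (46.2%) and 7.73% of all genes with an entry. Among genes kept with an entry the share was 6.28%. *Hspa1a* and *Hspa1b* were the members with a match that fell. Of 22 genes of the ER stress and integrated stress responses 1 rose (4.55%, against 10.4% of all genes) and 2 fell (9.09%, against 9.84%).

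All 13 respiratory chain genes of mitochondrial DNA were lower and 4 fell (median -1.10). All genes of mitochondrial DNA in the table together made up 21.6%, 12.4% and 7.02% of the summed means over the 3 groups in order of time. *mt-Co1*, of cytochrome oxidase, was at 79600, 44200 and 18700 (-1.24 ± 0.49, and 4.55 with the highest library, which may lie in day 0, taken out of BDL day 3), and *mt-Nd2* at 9940, 4660 and 1900 (-1.29 ± 0.63). At the same sum of both groups 12 of 13 were lower. Of 77 respiratory chain genes of the nucleus, 7 fell (9.09%, against 9.84% of all genes) and 1 rose (1.30%, against 10.4%), with a median of -0.32. The share that fell was thus near that of all genes. *Cox5a* (171 to 72.6, -1.24 ± 0.31) and *Cox6a1* (157 to 79.1, -0.99 ± 0.25) were among the falls.

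Of 81 cytosolic ribosomal protein genes, 12 were higher (14.8%, against 20.9% of all genes) and none lower, and 10 rose (12.3%, against 10.4%) and none fell, while 79 had a higher mean at BDL day 14 than at day 0. Their median log2 ratio of 0.26 was 0.46 at the same sum of both groups and 0.0099 with the highest library of each gene taken out. *Rps7* rose from 498 to 991 (0.99 ± 0.41) and *Rpl5* from 490 to 947 (0.95 ± 0.32), while *Rpl19* was at 1920 and 1680 (-0.19 ± 0.37). These genes have near-identical processed pseudogenes, with which reads could be shared. Of 22 glycolysis and hypoxia genes 4 rose (18.2%) and 2 fell (9.09%, against 9.84% of all genes). *Hif1a* rose from 20.1 to 39.1 (0.96 ± 0.22) and *Ndrg1* from 8.26 to 55.8 (2.76 ± 0.58), *Aldoa* fell from 710 to 405 (-0.81 ± 0.23), and *Gapdh* was at 1080 and 916 (-0.24 ± 0.35).

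A list of 30 genes was picked from those the study names, which are more. Of the 30, 27 were kept, and 7 of them rose and 4 fell (median 0.47). Some of the 30 mark cell types, and others were discussed for their change in these samples. The count is therefore no independent evidence of a direction.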

How the data were processed

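Per the labels and the study's methods, the authors sequenced mRNA of sorted GFP(+) cells, trimmed reads, aligned them to mm10 with STAR (2.6.1d in the submitters' processing notes), counted them against GENCODE release 18 in Partek Flow and normalized to the upper quartile. The deposited signal values are group means of these normalized counts, with a total, a highest library, and a geometric and an arithmetic mean over libraries. The table holds 0 columns of values per library. Its other columns hold the authors' own p-values, FDR, ratios, fold changes and confidence limits for their comparisons, and were not used. Samples were grouped by the labels. The 2 BDL day 14 libraries outside the mean are not named in the sources used here. The study states that it left out 2 samples of day 14 for too few reads.

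The log2 ratio of the BDL day 14 and BDL day 3 means was computed for genes with an arithmetic mean of at least 1, in Python 3.11.15 with numpy 2.4.6 and pandas 2.3.3. With group means alone no replicate test or p-value was possible. The labels do not say that libraries came from separate mice, though the study calls the replicates biological and gives the sexes of each group. The spread behind the SE (7 degrees of freedom) was solved from the gap between the logs of the arithmetic and geometric means, at the upper value that rounding to 3 significant digits allows. The scripts were tested on simulated data. The members and gene lists were chosen with earlier results of these data known. Genes were named by rule. The rule took the 12 largest rises and 12 largest falls with a mean of at least 10. These were ranked without the highest library where it could lie in the higher group. The rule also took the 3 highest and 3 most changed members of each list, the 30 genes picked from the study, and cell type markers. Other members were named after their values were seen. A few single genes are not reported here, though list counts include them. *Cyr61* and *Ctgf* were matched as *Ccn1* and *Ccn2*. Coordinates are GRCm38, and the end is the deposited stop less 1, which gave the coordinates of GENCODE release 21 for 16934 of 16950 symbols. Promoter sequences are from RefSeq, GRCm38.p6, and were matched by symbol. The alternatives tried were the filter, pseudocount, fold, scaling and removal of the highest library. The SE, the separation of libraries and the scaling to the same sum were chosen after the table was seen.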

Additional observations from a re-analysis of the deposited data

How the results depend on the processing

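Counts of higher and lower genes moved by more than 1.5-fold where the criterion itself was stricter. They were 1030 and 1271 with a mean of at least 10, 1632 and 1273 beyond 2-fold, 686 and 377 beyond 4-fold, 1339 and 1264 past 2 SE, 606 and 632 past 3 SE, and 17 and 57 with complete separation of the libraries. Without the filter, with a pseudocount of 1 or 0.1, with other scalings or with the highest library taken out, both counts stayed within 1.5-fold of 2690 and 2517. Scaling moved the split, which was 3613 and 1789 at the same sum and 2573 and 2737 after quantile normalization. At the same sum the medians of the heat shock, V-ATPase, stellate cell, Toll-like receptor and sex-linked lists changed sign (0.17, 0.017, 0.19, 0.20 and 0.041). After quantile normalization 20 of 333 genes named by rule moved by more than the spread between libraries. With a pseudocount of 1, 26 of the 333 did, and none changed sign. *Cd209f* went from -6.67 to -4.81 and *Jag1* from 3.83 to 2.24 under it, and the collagen median from 2.69 to 1.58.

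With the highest library assumed to belong to the higher group and taken out, the log2 ratio changed sign in 48 of 332 genes named by rule and the median in 7 of 56 lists. *Tpm1* and *Nod1*, outside that set, changed sign as well. Of the 48 genes, 12 were beyond 1.5-fold as deposited, and of the 7 lists the neutrophil list was (0.158). Besides these 12, 21 of the 332 genes moved by more than the spread between libraries, *Apoa1* among them. In each of the 12 genes the day 0 mean exceeded both others, so the highest library may lie in day 0. The values of the 12 were 2.70 for *Ccl5*, -0.515 for *Ehf*, -0.0343 for *Epcam*, 3.43 for *Hsph1*, -0.500 for *Krt7*, 0.158 for *Ngp*, 1.47 for *Retnlg*, -0.310 for *Rgs5*, 1.40 for *Tat*, 4.55 for *mt-Co1*, 1.27 for *mt-Co3* and 2.22 for *mt-Nd1*. *Abcc4* (0.57), *B2m* (-0.46), *Fcer1g* (-0.45), *Ftl1* (-0.52), *Gstp1* (-0.53) and *Psap* (0.56) came within 1.5-fold. Leaving out each replicate was not run, since the table holds group means. No paired analysis was possible because the columns carry no replicate numbers. The depth of the libraries is unknown, which leaves the precision of genes near the floor open to counting error of unknown size.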

Other observations

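By gene type, 23 of 304 processed pseudogenes rose and 4 fell, while 1282 of 12071 protein-coding genes rose and 1211 fell. Both pseudogene shares were below those of all genes, of which 10.4% rose and 9.84% fell. Processed pseudogenes are copies of spliced transcripts, and reads from their parent genes could be counted to them. Among long intergenic noncoding RNAs, 9 of 127 rose, a share below that of all genes, and 17 fell, a share above it.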
